A study of Mus musculus with 22 samples.

Results

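The genes described here are the mouse matrix metalloproteinases (MMPs), the ADAM and ADAMTS proteases with the ADAMTS-like proteins, and their inhibitors, the TIMPs and Reck. They were chosen by gene symbol among protein coding genes, with no use of their values: Mmp, Adam, Adamts and Adamtsl genes, Timp1 to Timp4 and Reck. The counts held 68 such genes of 29367 genes in all, of which 18220 were protein coding. The libraries were made from polyadenylated mRNA bound to HA-tagged astrocyte ribosomes of the mouse optic nerve, from the optic nerve head (ONH), the unmyelinated segment behind the eye, or from the myelinated optic nerve proper (ONP). All 22 came from eyes injected with microbeads, which block fluid outflow and elevate the intraocular pressure, and were taken 7 days (4 ONH and 4 ONP libraries) or 30 days (7 and 7) later. All mice were young adults from a cross of the ribotag strain B6J.129(Cg)-Rpl22tm1.1Psam/SjJ, which carries the tagged ribosomal protein, with the B6.Cg strain 73.12Mvs/J, whose transgene Tg (GFAP-Cre) drives Cre, and the labels give the genotype as WT. A library was 1 pool from 4 mice, of which 2 were males and 2 females. The GFAP promoter drives Cre, so ribosomes are tagged in any cell in which this promoter was active, and RNA from untagged cells can be carried through the immunoprecipitation. Untreated mice were not analysed here, so each value is a level after microbead injection and each difference is between regions or between days.

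MMPs and ADAMs are zinc proteases that are made as inactive precursors. MMPs cut collagens, laminins and other matrix proteins, either as secreted enzymes or, for the membrane-type MMPs, at the cell surface. ADAMs are mostly membrane proteins that release the outer parts of other membrane proteins, and ADAMTS enzymes are secreted and include those that cut aggrecan, versican and brevican. TIMPs bind the active site of MMPs and, in the case of Timp3, of several ADAMs and ADAMTS enzymes. In the optic nerve head, where ganglion cell axons pass through a mesh of astrocyte processes, turnover of the matrix by these enzymes has long been studied in relation to glaucoma.

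Libraries held 16292489 to 33307092 counts, so that 3 counts, taken as the smallest detectable amount, correspond to 0.0897 to 0.191 counts per 1000000 counts of the library after scaling by TMM factors (CPM). The 10 astrocyte markers summed to between 15300 and 33700 CPM over all libraries, and all 10 were detected. Markers of other cells were present too. The 9 oligodendrocyte markers summed to 13400 to 41000 CPM in the ONH, 81100 to 106000 CPM in the ONP at 7 days and 25400 to 83200 CPM in the ONP at 30 days. The 10 microglia and macrophage markers ranged from 191 to 4980 CPM. The 4 photoreceptor markers reached 5110 CPM and the 5 pigment cell markers 819 CPM in ONH libraries, against at most 115 and 8.14 CPM in the ONP. Of the 7 day ONH libraries, library 1 was high in surface epithelium markers (220 CPM) and library 6 in photoreceptor markers. Most of the sum in library 1 was Krt15 (187 CPM), with Krt5 at 18.7 and Krt14 at 13.8 CPM, while Trp63 and Epcam were at 0. Library 5 of this group held 1020 CPM of photoreceptor markers and 512 CPM of pigment cell markers. In such bulk samples fewer cells of a type and less RNA per cell cannot be told apart.

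Inhibitors held a large share of the expression of the family, and this share differed among the groups. With levels set per length (CPM per kb of exon), TIMPs took 51.1% to 70.3% of the summed level of all 68 genes in the 7 day ONH libraries (median 66.6%) and 56.4% to 67.1% in those at 30 days (median 65.3%). In the ONP they took 36.8% to 45.4% at 7 days (median 42.2%) and 46.7% to 66.3% at 30 days (median 55.7%), so that the 7 day ONP lay below all other libraries. The highest mean level per length over all libraries was that of Timp2 (151 CPM per kb), the TIMP that also takes part in the activation of pro-Mmp2 at the cell surface. Timp3, which is held in the matrix, followed at 85.4, then Adamts4, an aggrecanase, at 36.8 and Timp4 at 36.1 CPM per kb. Next came Adamtsl4 (22.4), Adam15 (22.3), Adam9 (19.1), the membrane-type MMP Mmp14 (17.6), Timp1 (16.2), Adam10 (14.1), Mmp19 (12.1) and Adamtsl5 (7.66). The TIMP sum exceeded the MMP sum 3.83- to 7.1-fold per length in each library, and this ratio overlapped among the groups. It ran from 3.83 to 7.1 in the ONH at 7 days, from 4.77 to 6.34 in the ONH at 30 days, from 3.88 to 5.18 in the ONP at 7 days and from 4.82 to 7.02 in the ONP at 30 days.

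**Figure D1:**
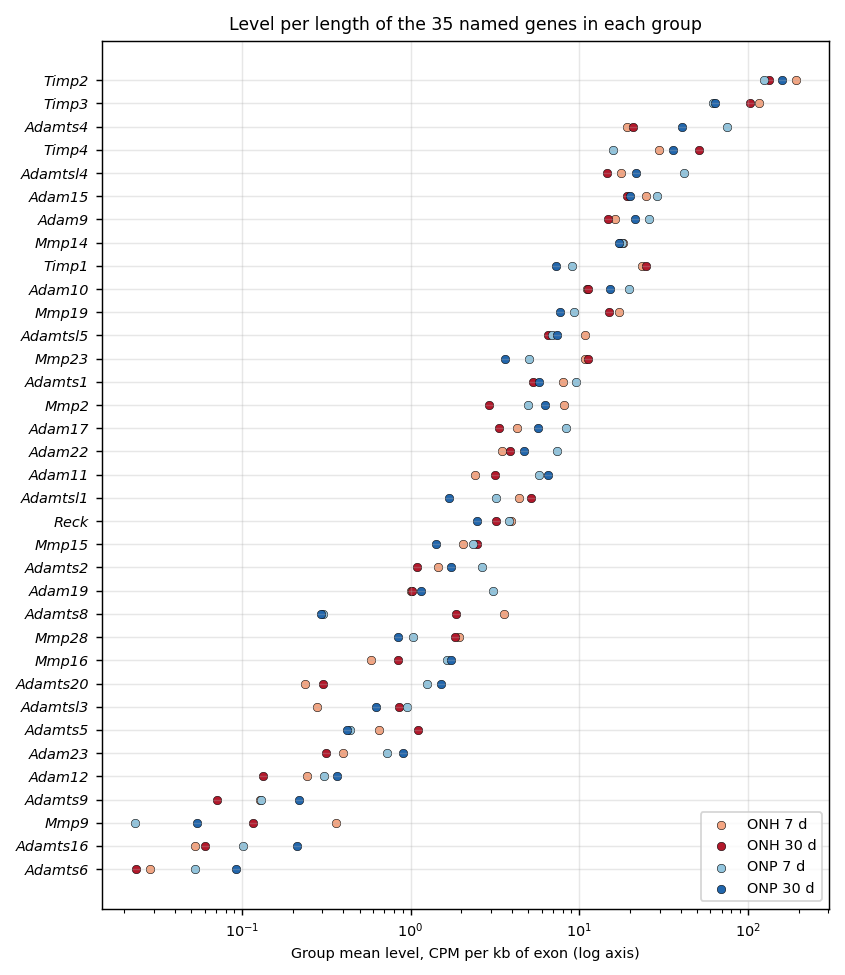
Mean level of each of the 35 named genes in the 4 groups, in CPM per kb of exon on a log axis, with 1 point for each group. Timp2 and Timp3 lie at the top, the 4 points of Mmp14 fall together near 17.6, and Adamts8 and Adamts20 have their ONH and ONP points well apart.

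Levels outside the inhibitors were uneven. Of the 68 genes, 32 had more than 3 counts in all 22 libraries and 13 had more than 3 counts in 5 libraries or fewer. Both collagenases in the counts were close to the detection limit: Mmp8 reached 0.2 CPM and Mmp13 reached 0.561 CPM at most. The gelatinase Mmp9 had its 4 highest values in ONH libraries (4.15, 0.969, 0.954 and 0.881 CPM) and was at 0 in 8 libraries, while the other gelatinase, Mmp2, was detected in every library, at 3.32 to 43.1 CPM. The stromelysin Mmp3 had a median of 0 and a maximum of 4.81 CPM. The ADAMs known mainly from testis and sperm were low: over Adam2, Adam3, Adam4, Adam5, Adam7, Adam18, Adam1a, Adam21 and Adam32, no library exceeded 2.04 CPM. Outside the genes named for a call, a high level or their role, 33 genes remained, of which 29 had a median under 1 CPM. The other 4 were Mmp11 (median 5.85 CPM), Mmp17 (4.37), Mmp24 (3.56) and Adamts10 (1.95).

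The proximal promoters of genes at both ends of this range are shown because the stromelysin and collagenase promoters are known for AP-1 and TATA elements. They are the 100 bases before the RefSeq start, in build GRCm38.p6, 5′ to 3′ on the strand of the gene. Capitals mark the letters of 3 motifs, each searched on both strands: TGANTCA for the AP-1 site, TATAAA for the TATA box and GGGCGG for the GC box. The genes are Mmp3 (chr9:7445722-7445821, + strand), Mmp13 (chr9:7272414-7272513, + strand), Mmp14 (chr14:54431498-54431597, + strand) and Timp4 (chr6:115252206-115252305, - strand).
Mmp3: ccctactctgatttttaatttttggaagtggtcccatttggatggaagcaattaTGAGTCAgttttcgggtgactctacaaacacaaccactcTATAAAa
Mmp13: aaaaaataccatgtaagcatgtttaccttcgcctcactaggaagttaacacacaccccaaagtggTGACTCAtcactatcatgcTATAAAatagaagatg
Mmp14: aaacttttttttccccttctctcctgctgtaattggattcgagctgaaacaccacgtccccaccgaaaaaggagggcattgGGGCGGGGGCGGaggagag
Timp4: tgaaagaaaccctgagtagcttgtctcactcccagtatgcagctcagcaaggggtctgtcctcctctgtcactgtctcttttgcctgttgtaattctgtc

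Mmp3 and Mmp13 each held an AP-1 site and a TATA box, Mmp14 a pair of adjoining GC boxes and Timp4 none of these letters. RefSeq promoters were matched for 41 of the 68 genes. In the 250 bases before the start, an AP-1 site was present in 4 of them (9.76%; Adam19, Mmp3, Mmp12 and Mmp13) against 6.75% of all 32851 promoters. A TATA box was present in 5 (12.2%) against 12.4%, and a GC box in 25 (61%) against 32.7%. The shares of the family are per gene and those of all promoters per promoter, so they are not like for like. The genes with a GC box included Timp1, Timp2, Timp3, Reck, Mmp14 and Adam10. These matches are descriptions of letters and were not tested.

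The regional comparison asked how the family differs between astrocytes of the ONH and those of the ONP after microbead injection. At 30 days the ONH was higher in Timp1, Timp3, Mmp19, Mmp23, Mmp28, Mmp15, Adamts5, Adamts8 and Adamtsl1. It was lower in Mmp2, Mmp16, Adam9, Adam10, Adam11, Adam12, Adam17, Adam23, Adamts4, Adamts6, Adamts9, Adamts16, Adamts20 and Adamtsl4. In all, 23 of 42 genes tested passed an adjusted p of 0.05 (edgeR quasi-likelihood test, Benjamini-Hochberg over all genes), 9 of them higher and 14 lower, where 41.8% of all genes tested passed (21.8% higher and 20% lower). The median log2FC was −0.14 over the 42 genes and −0.005 over all genes tested. At 7 days 15 of 41 passed, 6 higher and 9 lower, where 13.3% of all genes passed (6.37% higher and 6.9% lower), with a median of 0.003 over the 41 genes and 0.07 over all genes. The comparisons at 7 and 30 days share no libraries. Of 39 genes tested at both, 32 had the same sign, and 11 passed at both days, each in the same direction. The shares of all genes with the same sign or passing at both days were not counted, so these numbers have no background beside them. The passing genes at both days were Timp1, Timp3, Mmp19, Mmp23 and Adamts8 (higher) and Mmp16, Adam10, Adam11, Adamts4, Adamts20 and Adamtsl4 (lower). At 30 days the libraries of the regions did not overlap for 4 genes that were higher and 2 that were lower in the ONH, where 9.27% and 7.08% of all genes had such values. At 7 days they did not overlap for 6 that were higher and 11 that were lower, where 9.9% and 11.8% of all genes did.

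**Figure D2:**
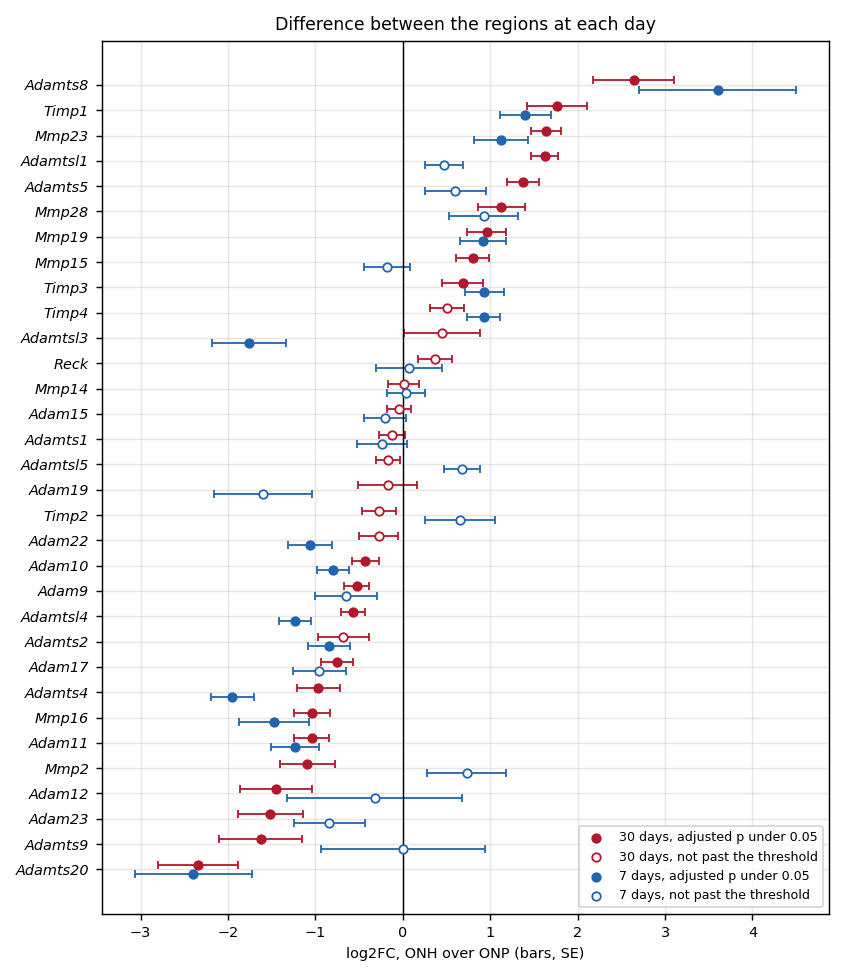
Log2FC of the ONH over the ONP with its SE for the 32 named genes tested at both days, ordered by the value at 30 days, with filled points where the adjusted p was under 0.05. Adamts8 and Timp1 are at the top at both days and Adamts20 at the bottom, while Mmp2, Mmp15 and Adamtsl3 have points on opposite sides of 0.

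Of the inhibitors, Timp1 differed the most between the regions. Timp1 (chrX:20870166-20874735, + strand, GRCm38), the TIMP that is induced by cytokines and injury in many tissues, stood at 20.8, 15.5, 28.6 and 19.5 CPM in the 7 day ONH libraries and at 5.45, 9.23, 10.1 and 7.53 CPM in those of the ONP. At 30 days it ran from 12.6 through a median of 20.6 to 31.6 CPM in the ONH and from 2.79 through 4.98 to 14.5 CPM in the ONP. The 7 day groups did not overlap, and at 30 days 1 ONP library (replicate 7, 14.5 CPM) lay within the range of the ONH. The log2FC was 1.40 ± 0.29 (SE) at 7 days (edgeR adjusted p = 0.0103, n = 4 and 4) and 1.76 ± 0.34 at 30 days (adjusted p = 0.000687, n = 7 and 7).

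Timp3 (chr10:86300372-86349506, + strand) stood at 1190, 837, 666 and 1100 CPM in the 7 day ONH libraries and at 599, 571, 367 and 481 CPM in the ONP, with no overlap. At 30 days the ONH spanned 549 to 1150 CPM (median 721) and the ONP 338 to 752 CPM (median 440), so that the groups overlapped. The log2FC was 0.93 ± 0.22 at 7 days (edgeR adjusted p = 0.0200) and 0.69 ± 0.23 at 30 days (adjusted p = 0.0273). Without 1 library the 30 day call was lost in 6 of 14 cases, namely without ONH replicate 1 or 2 or ONP replicate 4, 5, 6 or 7 (adjusted p up to 0.0604), and the 7 day call in 3 of 8, without ONH library 1 or ONP library 5 or 6 (up to 0.0691). It was also lost at 30 days without the 5 libraries high in macrophage markers (log2FC 0.49, adjusted p = 0.124) and at 7 days without ONH libraries 1 and 6 (0.57, adjusted p = 0.0983). Of the exon bases of Timp3, 21.3% are shared with Syn3 on the other strand, and the counting is not stated to use strand.

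Timp4 (chr6:115241892-115252205, - strand), the TIMP most restricted to brain, heart and muscle, was at 192, 206, 182 and 122 CPM in the 7 day ONH and at 107, 96.0, 95.3 and 77.5 CPM in the 7 day ONP. The groups did not overlap, and the log2FC was 0.92 ± 0.19 (edgeR adjusted p = 0.0102). At 30 days the ONH ran from 200 to 415 CPM (median 302) and the ONP from 114 to 270 CPM (median 228). The log2FC of 0.51 ± 0.20 missed the threshold (edgeR adjusted p = 0.0509). With the pools paired by replicate number, assumed to mark the same mice, it was 0.52 with an adjusted p of 0.00221. Timp2 (chr11:118301069-118355740, - strand) showed no call at either day, with log2FC of 0.65 ± 0.40 at 7 days (adjusted p = 0.310) and −0.27 ± 0.20 at 30 days (adjusted p = 0.284). Its 7 day ONH libraries were far apart, at 1040, 1090, 578 and 311 CPM. Reck, a membrane-anchored inhibitor, gave 0.07 ± 0.38 at 7 days and 0.37 ± 0.19 at 30 days (adjusted p = 0.924 and 0.132).

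**Figure D3:**
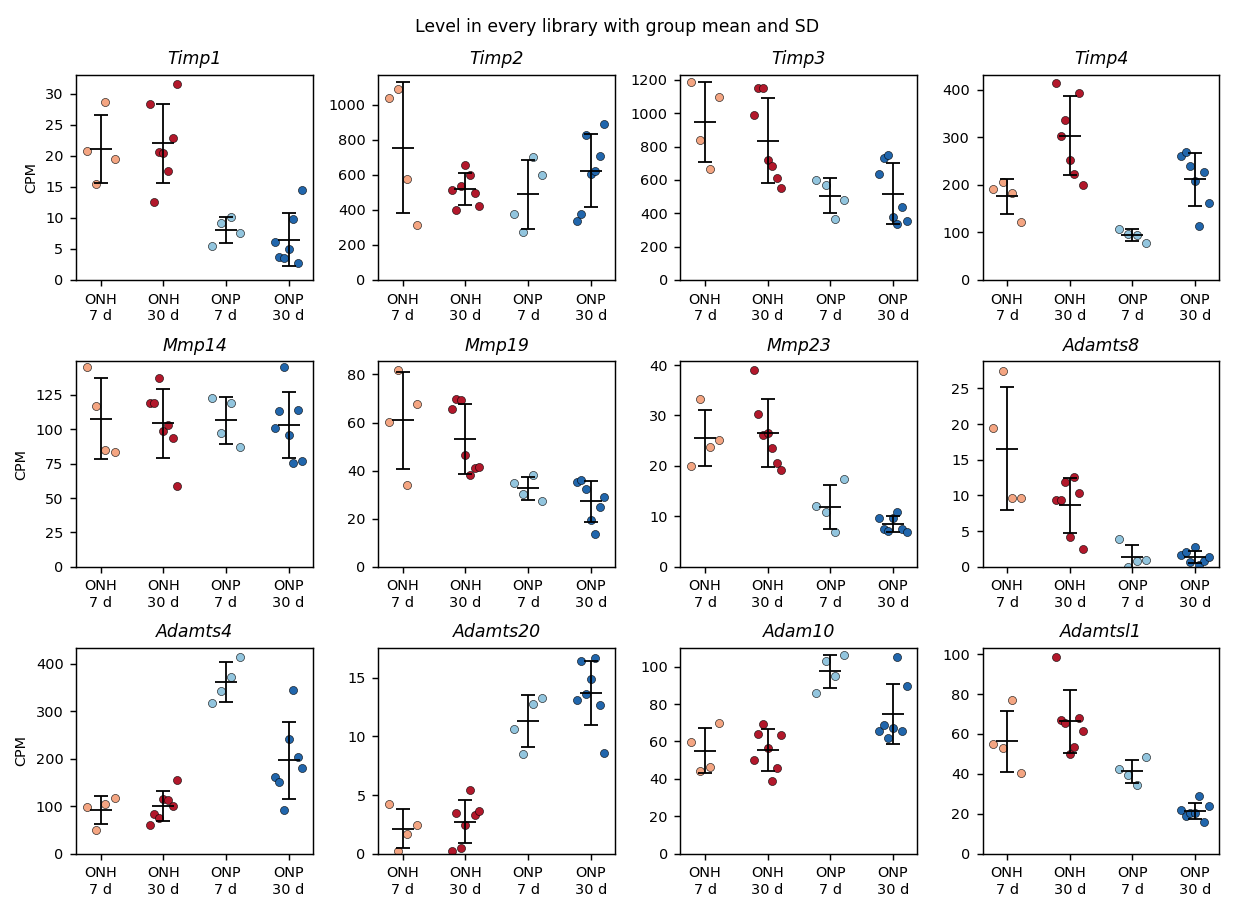
CPM of 12 genes in every library of the 4 groups, with 1 panel for each gene, points for libraries and a black bar and whiskers for the mean and SD. Timp1, Mmp23 and Adamts8 stand higher in the ONH and Adamts20 lower, Mmp14 lies at like levels in all groups, and Adamts4 is high in the 4 ONP libraries at 7 days (316 to 414 CPM).

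Among the MMPs, Mmp19 and Mmp23 were higher and Mmp16 lower in the ONH at both days. Mmp23 (chr4:155650655-155653384, - strand), a membrane MMP without the usual hemopexin domain, was at 19.9, 33.2, 23.7 and 25.2 CPM in the 7 day ONH and at 12.1, 10.9, 6.81 and 17.5 CPM in the ONP. At 30 days it ran from 19.1 to 39.1 CPM in the ONH and from 6.95 to 10.8 CPM in the ONP. The groups did not overlap at either day, and the log2FC was 1.13 ± 0.31 (edgeR adjusted p = 0.0349) and 1.64 ± 0.17 (adjusted p = 4e-06). Mmp19 (chr10:128790910-128800824, + strand), a secreted MMP that acts on basement membrane proteins, was at 60.3, 82.0, 33.9 and 67.6 CPM in the 7 day ONH and at 35, 30.3, 38.2 and 27.5 CPM in the ONP, where library 5 of the ONH (33.9 CPM) overlapped. At 30 days its ranges of 38.1 to 69.7 and 13.5 to 36 CPM were apart. The log2FC was 0.92 ± 0.26 (adjusted p = 0.0410) and 0.96 ± 0.22 (adjusted p = 0.00266). Of the exon bases of Mmp19, 22.3% are shared with Tmem198b on the other strand.

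Mmp28, or epilysin, was higher in the ONH at 30 days (log2FC 1.13 ± 0.27, edgeR adjusted p = 0.00332; 3.54 to 10.8 against 2.06 to 4.24 CPM), and at 7 days gave 0.92 ± 0.39 with an adjusted p of 0.146. Of the membrane-type MMPs, Mmp15 was higher in the 30 day ONH (0.80 ± 0.19, adjusted p = 0.00302; 9.39 to 18.4 against 5.95 to 11.4 CPM), and at 7 days stood at −0.18 ± 0.27 (adjusted p = 0.696). Mmp16 was lower in the ONH at both days, by −1.48 ± 0.40 at 7 days (adjusted p = 0.0332) and −1.04 ± 0.21 at 30 days (adjusted p = 0.000973). It was at 8.83, 2.33, 4.05 and 5.05 CPM in the 7 day ONH against 14.0, 13.6, 12.6 and 16.9 CPM in the ONP, and the groups were apart at 30 days too (5.34 to 10.1 against 10.5 to 23.1 CPM). Mmp14 (chr14:54431612-54445364, + strand), the membrane-type MMP with the highest level and the activator of pro-Mmp2, gave 0.03 ± 0.22 and 0.01 ± 0.18 at 7 and 30 days (adjusted p = 0.937 and 0.971).

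The gelatinase Mmp2 was lower in the ONH at 30 days, at 3.32 to 20 CPM (median 10.1) against 14.9 to 29.2 CPM (median 19.0), with a log2FC of −1.09 ± 0.32 (edgeR adjusted p = 0.0116). Its 7 day ONH libraries were at 26.7, 6.28, 33.4 and 43.1 CPM and its ONP libraries at 21, 13.4, 15.1 and 17.1 CPM, with a log2FC of 0.73 ± 0.45 (adjusted p = 0.315). Library 3, the lowest of the 7 day ONH in Mmp2, was also the lowest there in microglia and macrophage markers (218 CPM). It was the lowest there in every other list of non-astrocyte markers except surface epithelium, and the highest in astrocyte markers (27800 CPM). Mmp2 is made by fibroblasts among other cells, and the 5 fibroblast and meningeal markers summed to 643 to 1730 CPM in the 7 day ONH, 393 to 867 CPM in the 30 day ONH, 155 to 597 CPM in the 7 day ONP and 80.3 to 591 CPM in the 30 day ONP. Col1a2 made much of the ONH sums, with means of 583 and 444 CPM at 7 and 30 days against 136 and 82.1 CPM in the ONP. Between the regions at 30 days, 4 of the 5 markers had a log2FC above 0 and 1 below, with a median of 0.18, and 1 was called, higher in the ONH. The part of these markers in the Mmp2 result was not tested. Without the 5 libraries high in macrophage markers the 30 day log2FC was −0.95 with an adjusted p of 0.114.

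Among the ADAMTS enzymes that cut proteoglycans, members differed in opposite directions. Adamts8 (chr9:30942562-30963838, + strand) was at 19.5, 27.4, 9.69 and 9.70 CPM in the 7 day ONH and at 3.86, 0, 0.821 and 0.937 CPM in the ONP. At 30 days it ran from 2.43 to 12.6 CPM in the ONH (median 9.41) and from 0.243 to 2.77 CPM in the ONP (median 1.36), where ONH replicate 7 overlapped. The log2FC was 3.60 ± 0.90 at 7 days (edgeR adjusted p = 0.0246) and 2.64 ± 0.46 at 30 days (adjusted p = 0.000331). Adamts5, the second major aggrecanase, was higher in the ONH at 30 days without overlap, at 9.79 to 15.2 against 3.31 to 6.71 CPM (1.38 ± 0.18, adjusted p = 3.19e-05), and gave 0.60 ± 0.35 at 7 days (adjusted p = 0.280).

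Adamts20 (chr15:94270163-94465418, - strand), an enzyme known from versican cleavage in the migration of pigment cell precursors, was at 4.2, 0.209, 1.65 and 2.47 CPM in the 7 day ONH and at 10.6, 8.53, 12.8 and 13.3 CPM in the ONP. At 30 days its ranges were 0.27 to 5.45 and 8.59 to 16.7 CPM. The groups were apart at both days, with a log2FC of −2.40 ± 0.67 (edgeR adjusted p = 0.0385) and −2.34 ± 0.46 (adjusted p = 0.000841). Adamts4 (chr1:171250421-171260637, + strand), which in the central nervous system is also expressed by oligodendrocytes, was at 98.7, 50.2, 104 and 117 CPM in the 7 day ONH and at 316, 343, 371 and 414 CPM in the ONP. At 30 days it ran from 60.6 to 154 CPM in the ONH (median 101) and from 91.3 to 345 CPM in the ONP (median 181). The log2FC was −1.95 ± 0.24 (adjusted p = 0.000642) and −0.97 ± 0.25 (adjusted p = 0.00576).

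Adamts4 ordered the libraries much as the oligodendrocyte markers did. In the 30 day ONP its lowest library, replicate 3 (91.3 CPM), had the lowest oligodendrocyte sum (25400 CPM), and its highest, replicate 5 (345 CPM), had the highest sum (83200 CPM). In the 7 day ONP the library with the most Adamts4 (414 CPM) had 106000 CPM of these markers and the one with the least (316 CPM) had 81100 CPM. Of the 9 oligodendrocyte markers, 7 were lower in the ONH at 30 days and 9 at 7 days. Their part in the Adamts4 result was not tested.

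**Figure D4:**
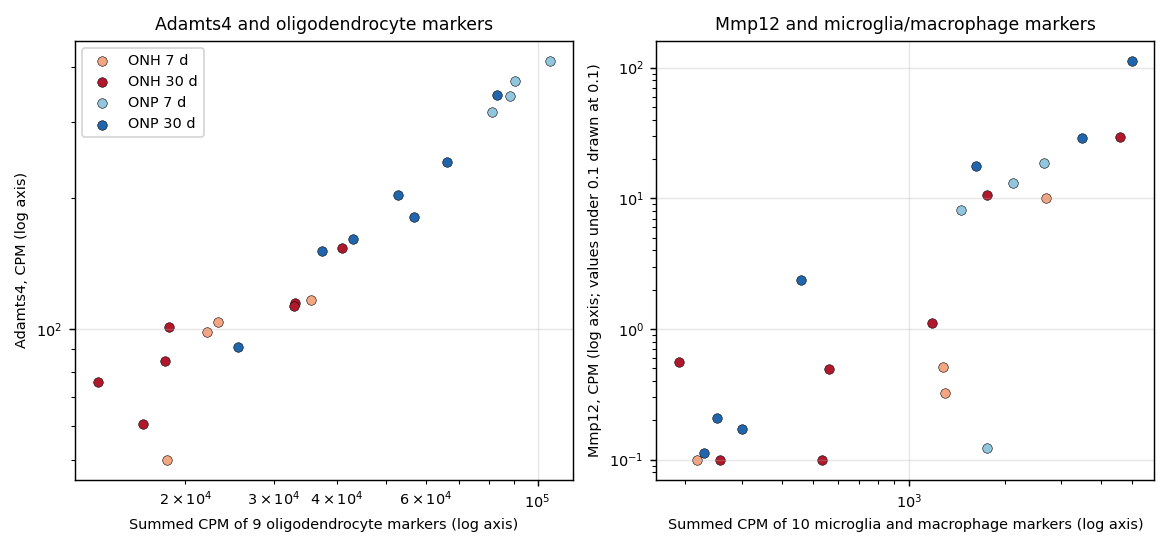
Left, Adamts4 against the summed CPM of 9 oligodendrocyte markers, and right, Mmp12 against the summed CPM of 10 microglia and macrophage markers, with 1 point for each of the 22 libraries and log axes. The 4 ONP libraries at 7 days lie at the upper right on the left, and the ONP library with 113 CPM of Mmp12 and 4980 CPM of markers at the upper right on the right.

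Of the ADAMTS-like proteins, which lack the protease domain and bind matrix, Adamtsl1 was higher in the 30 day ONH without overlap, at 50.0 to 98.8 against 15.9 to 29.0 CPM (log2FC 1.62 ± 0.16, edgeR adjusted p = 1.64e-06). At 7 days the difference was 0.47 ± 0.22 (adjusted p = 0.182). Adamtsl4, which binds fibrillin microfibrils, was lower in the ONH at both days, by −1.23 ± 0.18 (adjusted p = 0.00172; 60.8, 73.5, 64.0 and 98.4 against 156, 181, 169 and 199 CPM) and −0.57 ± 0.14 (adjusted p = 0.0039). Adamtsl3 was lower in the ONH at 7 days (−1.76 ± 0.42, adjusted p = 0.0205) and gave 0.45 ± 0.44 at 30 days (adjusted p = 0.439).

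The ADAMs that passed the edgeR test were lower in the ONH. Adam32 and Adam18 did not pass its filter on low counts in the regional comparisons, and at 30 days DESeq2 called Adam32 higher in the ONH (log2FC 3.62, adjusted p = 0.0086) and Adam18 lower (−4.58, adjusted p = 0.000239). Adam32 was at no more than 1.67 CPM in any library. Adam10 (chr9:70678997-70780229, + strand), the sheddase of Notch, App and N-cadherin, was at 59.5, 44.4, 46.6 and 70.0 CPM in the 7 day ONH and at 86.0, 103, 94.8 and 106 CPM in the ONP, without overlap. The log2FC was −0.80 ± 0.18 (edgeR adjusted p = 0.0166), and at 30 days, when the groups overlapped, −0.43 ± 0.16 (adjusted p = 0.0352). With the 30 day pools paired by replicate number the edgeR adjusted p was 0.0511, and without the 5 libraries high in macrophage markers it was 0.195 (log2FC −0.32). Adam17, the sheddase of TNF and of EGF receptor ligands, was lower at 30 days (−0.76 ± 0.18, adjusted p = 0.00389; 17.4 to 35.7 against 30.2 to 58.1 CPM). At 7 days, with the groups apart (18 to 48.2 against 53.1 to 70.1 CPM), it gave −0.95 ± 0.31 and missed the threshold (edgeR adjusted p = 0.0661). DESeq2 called it lower at 7 days (log2FC −0.965, adjusted p = 0.0276). Adam19, with groups apart too, gave −1.60 ± 0.56 at 7 days (edgeR adjusted p = 0.086), and DESeq2 called it lower (−1.61, adjusted p = 0.0257). At 30 days Adam19 gave −0.17 ± 0.34 (edgeR adjusted p = 0.71).

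Adam11, Adam22 and Adam23 are neural ADAMs without protease activity, which bind LGI proteins at synapses and along axons. Adam11 was lower in the ONH at both days (−1.23 ± 0.27, edgeR adjusted p = 0.0136, and −1.04 ± 0.20, adjusted p = 0.000731), at 11.5, 20.8, 10.6 and 11.6 CPM against 27.5, 27.7, 39.3 and 35.7 CPM at 7 days. Adam22 was lower at 7 days (−1.06 ± 0.25, adjusted p = 0.0179) and stood at −0.28 ± 0.22 at 30 days (adjusted p = 0.336). Adam23 was lower at 30 days (−1.52 ± 0.37, adjusted p = 0.00393) and stood at −0.84 ± 0.41 at 7 days (adjusted p = 0.201). Adam15, the ADAM with the highest level per length, gave −0.20 ± 0.24 and −0.04 ± 0.14 (adjusted p = 0.622 and 0.834). Of the exon bases of Adam15, 20.6% are shared with the antisense gene 4731419I09Rik, and Adamts8 and Mmp28 share 10.6% and 12% with genes on the other strand.

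The remaining calls concerned genes at lower levels or with smaller differences. At 30 days the ONH was lower in Adam9 (log2FC −0.52), Adam12 (−1.45), Adamts9 (−1.63), Adamts16 (−1.82) and Adamts6 (−1.94). Adamts6 and Adamts16 did not exceed 1.57 and 2.74 CPM in any library, and the call of Adamts16 was lost without ONP replicate 6 and that of Adamts6 without ONH replicate 6 or ONP replicate 4 (edgeR adjusted p of 0.0539 and up to 0.0756). Adam12 was not called without the 5 libraries high in macrophage markers (adjusted p = 0.0906). Without any of 6 single libraries (ONH replicates 1, 4, 5 and 6 and ONP replicates 5 and 7) the 30 day call of Adam10 was lost too (adjusted p up to 0.0701). At 7 days the procollagen N-proteinase Adamts2 was lower (−0.85 ± 0.24, adjusted p = 0.0437), and its call held only when the library left out was ONH library 6.

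The 7 day calls rested on 4 libraries a group, and leaving out 1 of them changed their number more than at 30 days. There were 7 genes called without ONP library 2, 5 or 6 and 9 without ONP library 1, against 15 with all libraries. The shares of all genes called in fits with libraries left out were not counted, so such numbers have no background beside them. The calls of Timp1, Timp4, Adamts4 and Adamtsl4 held whichever library was left out. That of Mmp19 held only without ONH library 5. That of Mmp23 was lost without ONH library 3 or 5 or ONP library 1, 2 or 5 (edgeR adjusted p up to 0.1), that of Mmp16 without ONH library 5 or any ONP library (up to 0.0989), and that of Adamts20 without ONH library 5 or 6 or any ONP library (up to 0.0993). Adamts8 was lost without ONH library 1 or 3 or ONP library 5 or 6 (up to 0.083), Adam10 and Adam22 without ONP library 2 or 6 (up to 0.0591 and 0.0569), Adamtsl3 without ONP library 1 or 2 (up to 0.0848) and Adam11 without ONP library 5 (0.0528). Without ONH libraries 1 and 6, with their epithelial and photoreceptor markers, 12 genes were called, 11 of them among the 15. ONH library 5, which also held photoreceptor and pigment cell markers, was kept in this fit. The calls lost were those of Timp3, Mmp19 (log2FC 0.82, adjusted p = 0.112), Adam11 (−1.05, adjusted p = 0.0561) and Adamts2 (−0.88, adjusted p = 0.0626).

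The comparison of days asked how the family changed between 7 and 30 days after injection in each region. In the ONH no gene of the family passed: 0 of 47 tested, as for 0 of all 15668 genes (0%), by the edgeR quasi-likelihood test. At an unadjusted p under 0.05, 7 of the 47 passed where 13.9% of all genes did. The median log2FC was −0.22 over the 47 genes and −0.02 over all genes. DESeq2 called 2 of 54 where it called 2.49% of all genes. These were Adamtsl5, at 59.4, 53.8, 39.6 and 52.3 CPM at 7 days and 24.0 to 39.3 CPM at 30 days (edgeR log2FC −0.75 ± 0.18, adjusted p = 0.182), and Adamts5, at 7.06, 9.39, 6.56 and 5.05 CPM and 9.79 to 15.2 CPM (0.73 ± 0.23, adjusted p = 0.221). The days did not overlap for either gene, 1 higher and 1 lower, where 1.76% and 0.53% of all genes had such values. Timp4 gave 0.76 ± 0.22 in the ONH (adjusted p = 0.195) and Mmp2 −1.5 ± 0.49 (adjusted p = 0.231).

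In the ONP 11 of 44 genes tested passed, where 17% of all genes did. Timp4 was the gene that rose (1 of 44, where 7.8% of all genes rose), and 10 fell, where 9.21% of all genes fell. Those that fell were Adam19, Adamtsl4, Adamtsl1, Adamts4, Adamts1, Mmp15, Adam22, Reck, Adam17 and Adam15, so that none of the 4 TIMPs was among them. The median log2FC was −0.14 over the 44 genes and −0.008 over all genes. Timp4 was at 107, 96.0, 95.3 and 77.5 CPM at 7 days and at 114 to 270 CPM at 30 days (median 228), without overlap. Its log2FC was 1.14 ± 0.21 (edgeR adjusted p = 0.00449, n = 7 and 4), and the call held whichever library was left out.

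**Figure D5:**
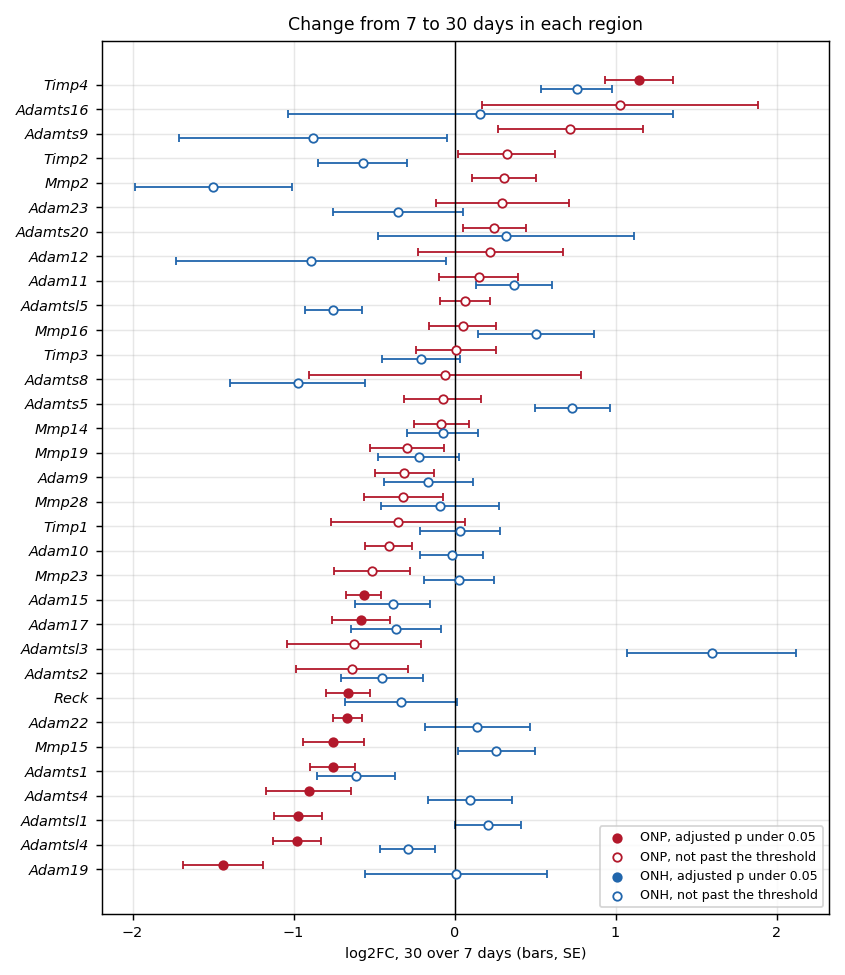
Log2FC of 30 over 7 days with its SE for the 33 named genes tested in both regions, ordered by the value in the ONP, with filled points where the adjusted p was under 0.05. Timp4 is the filled ONP point right of 0, the 10 other filled ONP points lie left of 0, and none of the ONH points is filled.

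Of the genes that fell in the ONP, Adam19, a sheddase of neuregulins, fell by the most. It was at 19.1, 15.5, 27.0 and 25.7 CPM at 7 days and at 4.74 to 12.9 CPM at 30 days, without overlap (log2FC −1.44 ± 0.25, edgeR adjusted p = 0.00323). Adamtsl4 (156 to 199 against 73.8 to 129 CPM, −0.98 ± 0.15, adjusted p = 0.0017) and Adamtsl1 (34.3 to 48.5 against 15.9 to 29.0 CPM, −0.97 ± 0.15, adjusted p = 0.00184) fell without overlap too. Adamts1, a versican and aggrecan protease, fell by 0.76 on the log2 scale (34.8 to 61.6 against 26.4 to 34.7 CPM, adjusted p = 0.00449), Adam22 by 0.67 (94.2 to 113 against 61.1 to 78.3 CPM, adjusted p = 0.000971), Reck by 0.66 (16 to 21 against 9.37 to 14.5 CPM, adjusted p = 0.00822) and Adam15 by 0.56 (162 to 187 against 102 to 155 CPM, adjusted p = 0.00567). These 4 also had days that did not overlap, which made 7 genes that were lower, and 1, Timp4, that was higher, where 5.79% and 6.2% of all genes had such values. Mmp15 (−0.75, adjusted p = 0.0195), Adamts4 (−0.9, adjusted p = 0.0356) and Adam17 (−0.58, adjusted p = 0.0447) overlapped between the days.

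The calls of Adamts4 and Adam17 were the least stable to leaving out a library. That of Adamts4 held only without ONP 30 day replicate 3, 4 or 5 (edgeR adjusted p over all cases 0.00491 to 0.104), that of Adam17 only without ONP 30 day replicate 5 or 7 (0.0175 to 0.12), and that of Mmp15 was lost without ONP 7 day library 2 (0.0534). Fitting all 4 groups together left 5 of the 11 calls, namely Timp4, Adamts1, Adamtsl1, Adamtsl4 and Mmp15. Over the same days 7 of 9 oligodendrocyte markers and 4 of 7 endothelial markers fell in the ONP, and their part in these changes was not tested. Without the 3 ONP libraries of 30 days above 1500 CPM of microglia and macrophage markers, 15 genes were called, 10 of them among the 11. The 30 day ONP libraries left held 229 to 458 CPM of these markers. The 7 day ONP libraries held 1460 to 2650 CPM and were all kept, so this fit did not level these markers between the days. In it Timp1 was among those that fell, with a log2FC of −1.01 and an edgeR adjusted p of 0.031. With all libraries Timp1 gave −0.35 ± 0.42 and an adjusted p of 0.599. ONP replicates 5 and 7, with 9.88 and 14.5 CPM of Timp1, held 3490 and 4980 CPM of microglia and macrophage markers.

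Whether the change between days differed between the regions was tested by the interaction over all 4 groups. Adamtsl1 was the gene of the family that passed (1 of 53, where 0.573% of all genes did), and it was lower in the ONP at 30 than at 7 days while its ONH values overlapped between the days. It was at 54.9, 52.9, 77.1 and 40.5 CPM in the 7 day ONH, 50.0 to 98.8 CPM in the 30 day ONH, 42.6, 39.6, 34.3 and 48.5 CPM in the 7 day ONP and 15.9 to 29.0 CPM in the 30 day ONP. The ONP change minus the ONH change was −1.18 ± 0.26 on the log2 scale (edgeR adjusted p = 0.0388). The call held only when the library left out was ONH library 5 at 7 days, ONH replicate 1, 4 or 5 at 30 days, ONP library 5 at 7 days or ONP replicate 5 or 7 at 30 days, and the adjusted p over all 22 cases ran from 0.0114 to 0.134. DESeq2 called 3 of the family (Adamtsl1, Mmp15 and Adamtsl5) where it called 2.28% of all genes. For Timp4, called between days in the ONP but not in the ONH, the difference of the changes was 0.39 ± 0.31 (adjusted p = 0.661).

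Mmp12, the macrophage elastase, varied more among libraries than between groups. It was at 113 CPM in ONP replicate 7 at 30 days, 29.6 CPM in ONH replicate 7, 28.9 CPM in ONP replicate 5, 18.7 CPM in ONP library 6 at 7 days and 17.6 CPM in ONP replicate 4. The microglia and macrophage markers of these libraries summed to 4980, 4580, 3490, 2650 and 1620 CPM. The 7 day ONP library 1 held 1750 CPM of these markers and 0.123 CPM of Mmp12. Mmp12 was not called in any of the 5 comparisons, with a log2FC of −1.92 ± 1.5 between the regions at 30 days (edgeR adjusted p = 0.329).

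Genes that act on these proteases or are cut by them were examined from a list of 48 other genes, of which 43 were tested between the regions. At 30 days 8 were higher and 17 lower in the ONH, and at 7 days 4 were higher and 12 lower. Of all genes tested, 21.8% were higher and 20% lower at 30 days, and 6.37% and 6.9% at 7 days. The median log2FC was −0.30 over the list and −0.005 over all genes at 30 days, and 0 and 0.07 at 7 days. Of the lectican proteoglycans and related substrates, Bcan (brevican), Ncan (neurocan), Vcan (versican) and Tnr (tenascin-R) were lower in the ONH at both days and Tnc (tenascin-C) was higher. The 3 oligodendrocyte precursor markers summed to 47 to 117 CPM in the ONH and 244 to 322 CPM in the ONP, and their part in these differences was not tested. Bcan was at 112 to 185 CPM in the 7 day ONH, 130 to 267 CPM in the 30 day ONH, 374 to 441 CPM in the 7 day ONP and 337 to 688 CPM in the 30 day ONP, with log2FC of −1.51 and −1.53 at 7 and 30 days (edgeR adjusted p = 0.000598 and 2.12e-05). Tnc gave 3.45 and 3.08 (adjusted p = 0.0139 and 5.28e-05). Lrp1 and Bsg, the receptor that clears MMP and TIMP complexes and the inducer of MMPs, were higher in the ONH at 30 days (1.23 ± 0.13 and 0.83 ± 0.10, adjusted p = 3.84e-06 and 1.87e-05) and gave 0.62 and 0.58 without a call at 7 days.

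Of the 9 partners of Adam10 and Adam17, 2 were called higher and 5 lower in the ONH at 30 days, where 21.8% and 20% of all genes were. At 7 days 1 was called higher and 4 lower, where 6.37% and 6.9% of all genes were. The tetraspanins Tspan5, Tspan14 and Tspan15 and Frmd8, which stabilises Adam17 with the iRhoms, were lower in the ONH at both days. Frmd8 gave −1.22 ± 0.14 and −0.97 ± 0.17 (edgeR adjusted p = 0.000383 and 0.000275). Tspan10 was higher in the ONH (5.35 and 8.52, adjusted p = 0.00236 and 1.29e-06), at 7.26 to 56.6 and 1.46 to 26.4 CPM against at most 1.24 CPM in the ONP, beside the pigment cell markers that were higher there too. Of the LGI ligands, Lgi3 was lower in the ONH at both days (−1.79 ± 0.18 and −0.74 ± 0.15, adjusted p = 0.000219 and 0.00118). Between days no gene of this list passed in the ONH (0 of 44, as for 0% of all genes). In the ONP 2 of 43 rose, where 7.8% of all genes did (Ncan and Serpine2, the inhibitor protease nexin-1), and 6 of 43 fell, where 9.21% did (Plat, the tissue plasminogen activator, Lrp1, App, Tspan14, Rhbdf1, an iRhom, and Lgi3). Lgi3 was the gene of the list that passed the interaction (−1.07 ± 0.24, adjusted p = 0.0388).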

How the data were processed

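The authors aligned the reads with STAR 2.6.1d to mm10 and quantified transcripts with Salmon 0.14.2, and the deposited values are estimated counts summed to genes, in whole numbers and with no scaling for depth. A second deposited table, of log2 values after a variance stabilizing transformation, was not used. All samples were mapped to a region and day. The 7 day columns carry numbers that do not follow the sample labels, so these libraries are named by their column number only.

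Each pair of groups was compared in R 4.3.3 with edgeR 4.0.16 (filterByExpr, TMM, robust quasi-likelihood test) over all genes, with Benjamini-Hochberg adjustment and a threshold of 0.05 and no log2FC cutoff. CPM values are counts over the library total times its TMM factor, and SE is the log2FC over the root of F. DESeq2 1.42.0, limma-voom (limma 3.58.1), other scalings and filters, and leaving out libraries were alternatives. The scripts were tested on simulated data. Exon lengths and positions come from GENCODE (GRCm38) and promoters from RefSeq. The limit of 3 counts covers counting error only.

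Of the 68 genes, 39 were tested by the main edgeR test in all 5 comparisons, 14 in 1 to 4 and 15 in none. The symbol rule for the family uses no values, but the family was picked for description, and the gene lists were written, with earlier results of these data known. Values are given for every inhibitor, every gene called in a comparison, the 12 highest per length, the gelatinases and Mmp14, 35 genes in all. Mmp12 and the other genes singled out outside this rule were picked after their values were seen. Plg, a gene of the pathway list, was not analysed here.

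By the study's methods the ONH and ONP tissue of a pool was taken from the same mice. No label states that pools of the same number share their mice, and this was assumed for the pairing at 30 days. Deviations of same-numbered pools correlated by 0.077 to 0.471, and 3 of 7 correlated best with their own number.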

Additional observations from a re-analysis of the deposited data

Results flagged for a closer look

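In the 140 sets of 4 or 7 libraries examined for the 35 named genes, 14 had a library far from the rest of its group by Dixon's Q. Its limit flags about 1 in 20 sets only if values are normally distributed. Some of the flagged values lie near the detection limit and the sets share their libraries, so the number due to chance is not known. At 7 days in the ONH the flagged libraries were library 3 for Adam11 (20.8 CPM), library 5 for Adam23 (12.3 CPM) and Mmp28 (12.5 CPM), and library 1 for Adamts16 (1.29 CPM) and Adamts9 (6.09 CPM), each the highest of 4. Library 1 also held 220 CPM of surface epithelium markers, most of it Krt15, and their part was not tested. In the 30 day ONH the highest of 7 stood apart for Adam11 (replicate 5, 26.2 CPM), Adam19 (replicate 7, 19.7 CPM) and Adamtsl1 (replicate 1, 98.8 CPM). ONH replicate 7 held 4580 CPM of microglia and macrophage markers, the highest of its group, and their part was not tested. In the 7 day ONP, Adamts6 was lowest in library 1 (0 CPM, where 3 counts are at most 0.191 CPM) and Mmp9 highest in library 5 (0.328 CPM). In the 30 day ONP the highest values apart from the rest were those of Adam23 (35.9 CPM) and Adamtsl3 (11.2 CPM) in replicate 5, Adamts6 in replicate 4 (1.57 CPM) and Adamtsl5 in replicate 3 (47.4 CPM).

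Adamtsl1 was the gene whose change between days differed between the regions by the interaction test (−1.18 on the log2 scale, edgeR adjusted p = 0.0388).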

How the results depend on the processing

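Counts of called genes stayed within 1.5 times the reported one for the comparison at 30 days in all alternatives (18 to 26 of them; 21 to 26 with 1 library left out). With the replicate number as a block, assumed to mark the same mice, it was 23, of which 22 were shared. The block changed no call other than those of Adam10 and Timp4. The interaction kept 1 call under the block. At 7 days 12 to 18 were called, and 7 to 15 with 1 library left out. The ONP change between days gave 9 to 15 calls, 8 to 13 with 1 library left out, but 5 with all 4 groups in one fit. The ONH change gave 2 calls by DESeq2, 1 with all 4 groups in one fit and 0 to 1 with 1 library left out. The interaction gave 3 calls by DESeq2, 0 with RLE size factors, scaling by library size only, no filter or ONH libraries 1 and 6 left out, and 0 to 2 with 1 library left out. The settings that left out libraries by their markers were chosen after seeing the data. Those high in macrophage markers were 30 day libraries above 1500 CPM, and 7 day libraries above this limit were kept. The causes of the differing counts were not tested. Outside DESeq2, the shares of all genes called under these alternatives were not counted, so the counts have no background beside them. At 7 days columns 1, 5 and 6 occur in both regions, but their numbers do not follow the sample labels, and same-numbered libraries correlated by 0.012 to 0.146 in their deviations from the group means. In fits added after seeing the data, these 3 libraries of each region gave 7 calls with the column number as a replicate block (7 of the 15) and 6 unpaired. The block was not fitted between days, which are different mice.

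Scaling by library size only moved the median of all genes by 0.112 for the ONP change, 0.112 for the regions at 7 days and 0.149 for the interaction. Single genes were followed under alternatives where they were inhibitors or were called in the main test of a comparison. Only an uncalled inhibitor could thus gain a call, and gains by other genes are not counted. Of 1448 such values, 1275 kept their direction and call, 145 lost the call, 9 gained it and 19 changed sign. The sign changes concerned uncalled inhibitors near 0. Between days in the ONH, Timp1 gave −0.02 by library size, −0.08 without the libraries high in macrophage markers and −0.02 without ONH libraries 1 and 6, and Timp3 gave 0.14 without the latter. Between the regions at 7 days Reck gave −0.07 by limma-voom, −0.35 and −0.12 with columns 1, 5 and 6 paired and unpaired, and −0.03 without ONH libraries 1 and 6, where the interaction of Timp3 was −0.13. With 1 library left out, Timp1 (−0.1 to 0.21) and Reck (−0.58 to 0.03) between days in the ONH, Timp3 between days in the ONP (−0.12 to 0.13) and Reck between the regions at 7 days (−0.31 to 0.3) crossed 0. The main edgeR test covered none of the 15 genes that its filter on low counts left out of every comparison. DESeq2 tested some of them, and called Adam18 lower in the ONH at 30 days.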
